A study of Mus musculus with 2 samples.

Results

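Processed pseudogenes with at least 5 FPKM in the higher of 2 libraries of CT26 cells were examined, 353 of 9497 processed pseudogenes and of 54532 genes in the deposited table. FPKM counts sequenced fragments for each kilobase of a gene, at a depth made common to the libraries. The members were chosen by their FPKM in the same libraries that are compared below, so their levels and ratios are a description and carry no test. CT26 is a mouse colon carcinoma cell line derived from a BALB/c mouse. In the CT26Oct4SOX2 culture, labelled dedifferentiated, lentivirus drove expression of mouse Oct4, encoded by Pou5f1, together with human SOX2. The CT26Ctrl culture, with the genotype label of wild type, carried lentivirus with the empty vector. Both were grown in RPMI 1640 with 10% FBS for 4 days and collected with trypsin, and total RNA was extracted with TRIzol. Each group was 1 library, so no difference has a replicate check. The sources used here give neither the promoter of the constructs nor whether cells were cloned, and the batch label reads "Not available".

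A processed pseudogene is a copy of a spliced messenger RNA that was reverse transcribed and inserted back into the genome. It lacks the introns of its source gene, often carries a remnant of the poly(A) tail, and in most cases has no promoter of its own. Genes with abundant messenger RNA in the germ line, such as those for ribosomal proteins and glycolytic enzymes, have left many copies. A short sequencing read can match the copy and the source gene equally well, so the number of reads at either place depends on how an aligner places such reads. The sources used here do not say how reads with several matches were treated, whether reads kept their strand, or how long they were.

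The members resembled protein-coding transcripts closely. By nucleotide alignment to GENCODE M21 transcripts, 351 of the 353 members had a most similar protein-coding gene, called the similar gene below, and these were 260 different genes. The median identity of the best alignment was 99.3%. It reached 99% or more in 208 members and 100% in 53, was below 95% in 20, and was lowest, at 81.1%, in Gm43427. The median member was 538 bases long (69 to 2406). An open reading frame of at least 95% of the similar gene's coding length was still present in 138 members. Of 349 members long enough for a window of 100 bases, 328 held at least 1 such window that occurs letter for letter in a transcript of another gene, 55 held no other kind, and 21 held none. In the median member 56.1% of the windows were shared.

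Sequences of 5 similar genes and 6 members follow, from GENCODE M21 transcripts on GRCm38, to show bases that separate a member from its similar gene. Each window was picked from the coding sequence, away from alignment gaps, for the most differing bases. The difference shown is therefore the largest in such a window and not a typical one. Each sequence is 120 bases from 5′ to 3′, in lower case, with capitals at the bases that differ between a member and its gene. The windows are the reference sequence, and the sequence of these loci in CT26 cells was not analysed here. The first pair is the member with the second most reads, Gm13394 (chr2:28934204-28934323, minus strand), and Gapdh, which lies within chr6:125161715-125166467 on the minus strand.
Gm13394: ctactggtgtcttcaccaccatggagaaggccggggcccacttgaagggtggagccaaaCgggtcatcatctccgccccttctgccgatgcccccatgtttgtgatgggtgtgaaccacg
Gapdh: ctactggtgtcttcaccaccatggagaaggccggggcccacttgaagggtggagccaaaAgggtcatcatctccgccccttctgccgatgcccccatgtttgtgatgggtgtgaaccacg
In this window 1 base differed, A60C, where positions count from 1 at the window's 5′ end and the protein-coding gene's base comes first. The second pair is Gm15772 (chr5:3236603-3236722, plus strand), a member with far more reads than its gene, and Rpl26 (within chr11:68901583-68906989, plus strand).
Gm15772: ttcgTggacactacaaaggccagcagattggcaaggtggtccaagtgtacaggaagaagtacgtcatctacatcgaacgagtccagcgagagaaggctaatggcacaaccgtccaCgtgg
Rpl26: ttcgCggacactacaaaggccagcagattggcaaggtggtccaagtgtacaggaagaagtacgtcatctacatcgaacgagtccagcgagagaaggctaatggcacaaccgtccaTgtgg
This pair differed by C5T and T116C. Next are the members most similar to Rps2 (within chr17:24718116-24721929, plus strand) whose levels differed most between the libraries in opposite directions, Gm6311 (chr13:75954476-75954595, plus strand) and Gm6576 (chr15:27025672-27025791, plus strand). Capitals in Rps2 mark the bases at which either member differs.
Gm6311: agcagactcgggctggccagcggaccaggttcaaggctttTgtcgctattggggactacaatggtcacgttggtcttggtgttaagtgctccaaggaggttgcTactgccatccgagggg
Gm6576: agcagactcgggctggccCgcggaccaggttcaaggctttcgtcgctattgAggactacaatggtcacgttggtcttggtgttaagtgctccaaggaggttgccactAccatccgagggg
Rps2: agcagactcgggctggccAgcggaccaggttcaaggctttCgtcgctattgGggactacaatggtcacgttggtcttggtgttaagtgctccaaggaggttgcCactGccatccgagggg
Gm6311 differed from Rps2 by C41T and C104T, and Gm6576 by A19C, G52A and G108A. The last pairs are members that were far higher in CT26Oct4SOX2 and are less like their genes. Gm6992 (chr12:31018580-31018699, plus strand) is shown with Pkm (within chr9:59656368-59679375, plus strand).
Gm6992: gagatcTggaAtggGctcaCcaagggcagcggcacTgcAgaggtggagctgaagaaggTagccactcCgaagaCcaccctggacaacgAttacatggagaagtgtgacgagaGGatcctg
Pkm: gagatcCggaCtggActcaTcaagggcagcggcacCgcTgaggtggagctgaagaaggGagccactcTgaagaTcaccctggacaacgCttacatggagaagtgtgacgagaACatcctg
These differed at 12 bases. Gm43427 (chr5:47975109-47975228, plus strand) is shown with Fam32a (within chr8:72219730-72224418, plus strand).
Gm43427: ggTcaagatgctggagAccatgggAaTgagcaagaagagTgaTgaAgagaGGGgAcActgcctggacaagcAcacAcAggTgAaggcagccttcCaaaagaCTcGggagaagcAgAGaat
Fam32a: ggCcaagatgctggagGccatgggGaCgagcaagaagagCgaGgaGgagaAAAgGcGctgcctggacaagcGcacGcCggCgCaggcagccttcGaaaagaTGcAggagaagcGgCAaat
These differed at 24 bases. No stretch of 100 bases of Gm43427 occurs in a transcript of another gene, against 88.9% of the 100-base windows of Gm13394.

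Read numbers were recovered from the steps of the FPKM values, and sum to 31521115 in CT26Oct4SOX2 and 32262408 in CT26Ctrl. The introduced factor Pou5f1 stood at 173 FPKM in CT26Oct4SOX2 and at 0 in CT26Ctrl, where none of its reads were seen. Sox2, the mouse gene, stood at 23.3 FPKM in CT26Oct4SOX2 and 14.1 FPKM in CT26Ctrl, and human SOX2 was not analysed here. Of 8 epithelial and colon markers, Krt18 and Krt20 reached 1 FPKM, while Epcam, Cdh1, Krt8, Krt19, Cdx2 and Vil1 were at or near 0 in both libraries. None of 8 markers of leukocytes, endothelium and muscle reached 1 FPKM, with a highest value of 0.266 FPKM in CT26Oct4SOX2 and 0.172 FPKM in CT26Ctrl. In these bulk libraries fewer cells of a kind and less RNA per cell cannot be told apart. No processed pseudogene at or above 1 FPKM had Pou5f1, Sox2 or Nanog as its similar gene.

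The members took a small share of all reads, and the share was lower in CT26Oct4SOX2. It was 1.12% there (352112 reads, exact 95% interval 1.11% to 1.12%) and 1.23% in CT26Ctrl (396234 reads, 1.22% to 1.23%). All 9497 processed pseudogenes took 1.21% in CT26Oct4SOX2 and 1.32% in CT26Ctrl, so the members held most of these reads. In both libraries 6532 of the 9497 had no read. Reads were concentrated, with the 12 most abundant members holding 50.6% of all member reads in CT26Oct4SOX2 and 51.6% in CT26Ctrl. The median member had 254 reads in CT26Oct4SOX2 (6 to 43452) and 253 in CT26Ctrl (0 to 55522). As FPKM, the median was 14.2 in CT26Oct4SOX2 and 13.6 in CT26Ctrl. The intervals cover counting error only. They take each read as independent, and copies made by PCR are not independent molecules. Just inside the threshold lay Gm12928, with 5.04 FPKM in CT26Oct4SOX2 and 4.48 FPKM in CT26Ctrl, Rps24-ps3, with 2.89 FPKM and 5.07 FPKM in the same order, and Gm18860, with 5.09 FPKM and 3.08 FPKM. Just outside lay Gm13071, with 2.84 FPKM in CT26Oct4SOX2 and 4.9995 FPKM in CT26Ctrl, Rpl35a-ps3, with 3.02 FPKM and 4.99 FPKM in that order, and Gm6419, with 4.97 FPKM and 4.16 FPKM.

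**Figure D1:**
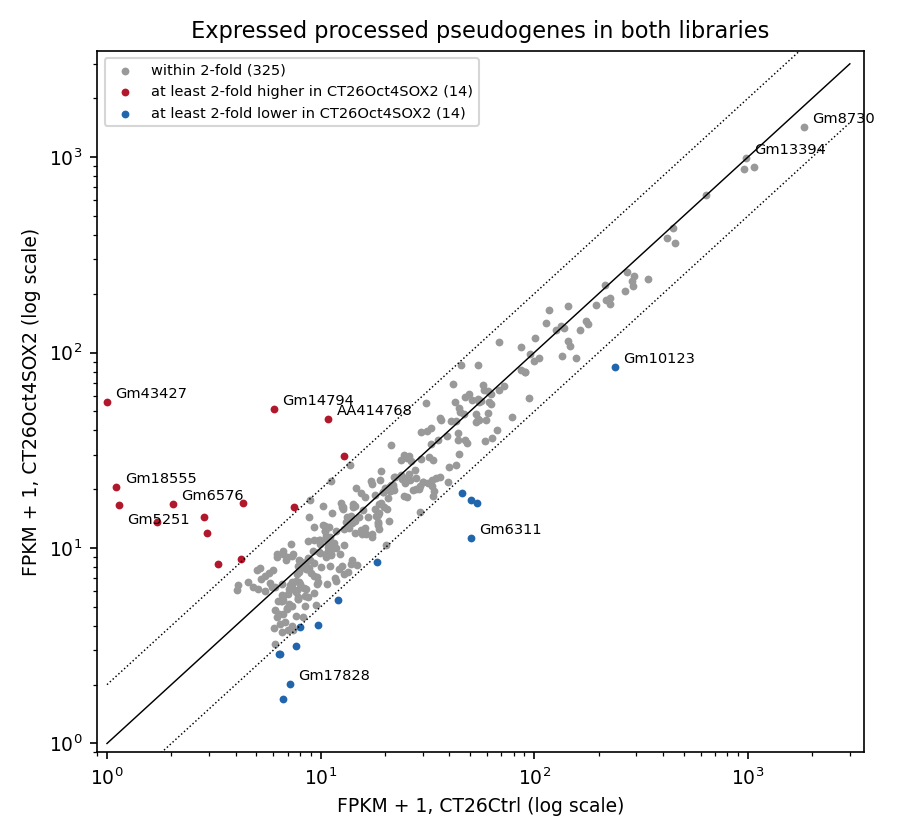
FPKM of each of the 353 members in CT26Oct4SOX2 against CT26Ctrl, both axes showing FPKM + 1 on a log scale, with members at least 2-fold apart on that scale marked. Most members lie close to the diagonal, 14 lie at least 2-fold above it and 14 at least 2-fold below, and Gm43427 lies at 0 in CT26Ctrl.

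Of the 12 most read members, 7 were copies of ribosomal protein genes, 2 of glycolysis genes and 3 of other genes, Eef1g, Odc1 and Rbpj. Their ratios, CT26Oct4SOX2 over CT26Ctrl, lay between 0.594 and 1.02. Ratios given below as times follow the same direction. Gm8730 had the most reads. It is most similar to Rplp0, which encodes a protein of the ribosomal stalk. Gm8730 stood at 1429.5 FPKM in CT26Oct4SOX2 and 1823 FPKM in CT26Ctrl, 1.28-fold lower, with 43452 and 55522 reads in that order. Rplp0 itself stood at 845 FPKM in CT26Oct4SOX2 and 868 FPKM in CT26Ctrl, so the member was above its gene in FPKM in both. With 3 further members, the copies of Rplp0 held 52.6% of the reads on Rplp0 and its members in CT26Oct4SOX2 and 57.7% in CT26Ctrl.

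Gm13394, a copy of Gapdh inside an intron of Cfap77, showed a wide gap to its gene. Gapdh is the glycolytic enzyme commonly used as a reference transcript. Gm13394 had 992 FPKM in CT26Oct4SOX2 and 975 FPKM in CT26Ctrl, from 31612 and 31127 reads in that order. Gapdh had 12.6 FPKM (1653 reads) in CT26Oct4SOX2 and 9.999 FPKM (1319 reads) in CT26Ctrl. The 4 members most similar to Gapdh, each 99.9% identical to it, held 95.3% of the reads on Gapdh and its members in CT26Oct4SOX2 and 96.1% in CT26Ctrl. Taken alone, Gapdh was 1.26-fold higher in CT26Oct4SOX2 (95% counting interval 1.17 to 1.35). Summed with its 4 members it was 1.03-fold higher (1.01 to 1.04).

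Other highly read members showed the same layout to different degrees. Gm15772, the copy of Rpl26 shown above, had 885 FPKM in CT26Oct4SOX2 and 1072 FPKM in CT26Ctrl. Rpl26, a protein of the large ribosomal subunit, had only 8.69 FPKM in CT26Oct4SOX2 and 7.68 FPKM in CT26Ctrl. Gm15772 stood at 0.826 times (95% counting interval 0.807 to 0.846), and Rpl26 at 1.13 times (0.979 to 1.31), an interval that includes 1. Gm12191, most similar to Rpl30 of the large subunit, had 865 FPKM in CT26Oct4SOX2 and 958 FPKM in CT26Ctrl, while Rpl30 had 30.9 and 30.3 FPKM in that order. Rps10-ps2, most similar to Rps10 of the small subunit, had 245 FPKM in CT26Oct4SOX2 and 292 FPKM in CT26Ctrl. Rps10 had 4.31 FPKM in CT26Oct4SOX2 and 3.76 FPKM in CT26Ctrl. Each of these copies stood far above its gene in both libraries.

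Gm4735 had 642 FPKM in CT26Oct4SOX2 and 633 FPKM in CT26Ctrl. Its similar gene was Eno1b, an enolase that the deposited table itself describes as retrotransposed. Eno1b had 418 FPKM in CT26Oct4SOX2 and 434 FPKM in CT26Ctrl. Both levels of this pair were close between the libraries. The enolase gene Eno1, the similar gene of another member, Gm8483, had more reads than Gm4735. Eno1 had 366 FPKM (62679 reads) in CT26Oct4SOX2 and 370 FPKM (63561 reads) in CT26Ctrl, and Gm4735 had 26637 and 26309 reads in that order. Rpl3-ps1, a copy of the large subunit gene Rpl3, had 431 FPKM in CT26Oct4SOX2 and 443 FPKM in CT26Ctrl, above Rpl3 at 249.5 and 284 FPKM in that order.

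The remaining highly read members were lower in CT26Oct4SOX2, as were their similar genes. Gm4366, a copy of Eef1g, a subunit of a translation elongation factor, had 177 FPKM there and 224 FPKM in CT26Ctrl, 0.788 times. Eef1g was at 0.750 times. Gm7993, a copy of Odc1, the ornithine decarboxylase of polyamine synthesis, had 139 FPKM in CT26Oct4SOX2 and 177 FPKM in CT26Ctrl, 0.785 times beside 0.772 times for Odc1. Rbpj-ps3, a copy of Rbpj, the DNA-binding factor of Notch signalling, had 92.9 FPKM in CT26Oct4SOX2 and 156 FPKM in CT26Ctrl. That was 0.594 times (0.572 to 0.617), beside 0.684 times for Rbpj (0.665 to 0.703). Copies of ribosomal protein genes completed the 12. Rps3a2, most similar to Rps3a1, had 364 FPKM in CT26Oct4SOX2 and 457 FPKM in CT26Ctrl, 0.796 times (0.774 to 0.818). Gm9625, another copy of Rplp0, had 189.9 FPKM (5778 reads) in CT26Oct4SOX2 and 225 FPKM (6855 reads) in CT26Ctrl, 0.844 times. Gm9794, most similar to Rpl23, had 383 FPKM in CT26Oct4SOX2 and 419 FPKM in CT26Ctrl, 0.914 times, beside 0.860 times for Rpl23. All 3 copies were lower by less than Rbpj-ps3.

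Over all members the usual order was the reverse, with the copy below its gene. The median member stood at 27.4% of its similar gene's FPKM in CT26Oct4SOX2 and 27.1% in CT26Ctrl. Among members whose gene was above 0 FPKM, 81 stood above their gene in FPKM in both libraries. Of these, 14 stood more than 10 times above it in both. AA414768 and Hist1h2al, whose genes are listed at 0 in both libraries, are not in these counts. These 81 held 196737 of the member reads in CT26Oct4SOX2 and 217690 in CT26Ctrl. By read number instead of FPKM, 28 members exceeded their gene in both libraries, with AA414768 and Hist1h2al counted. FPKM and read number order these pairs differently because the deposited lengths differ, for example 1000 bases for Gm13394 against 4133 bases for Gapdh. For 27 of the 260 similar genes the members held over 50% of the reads on gene and members together in both libraries.

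**Figure D2:**
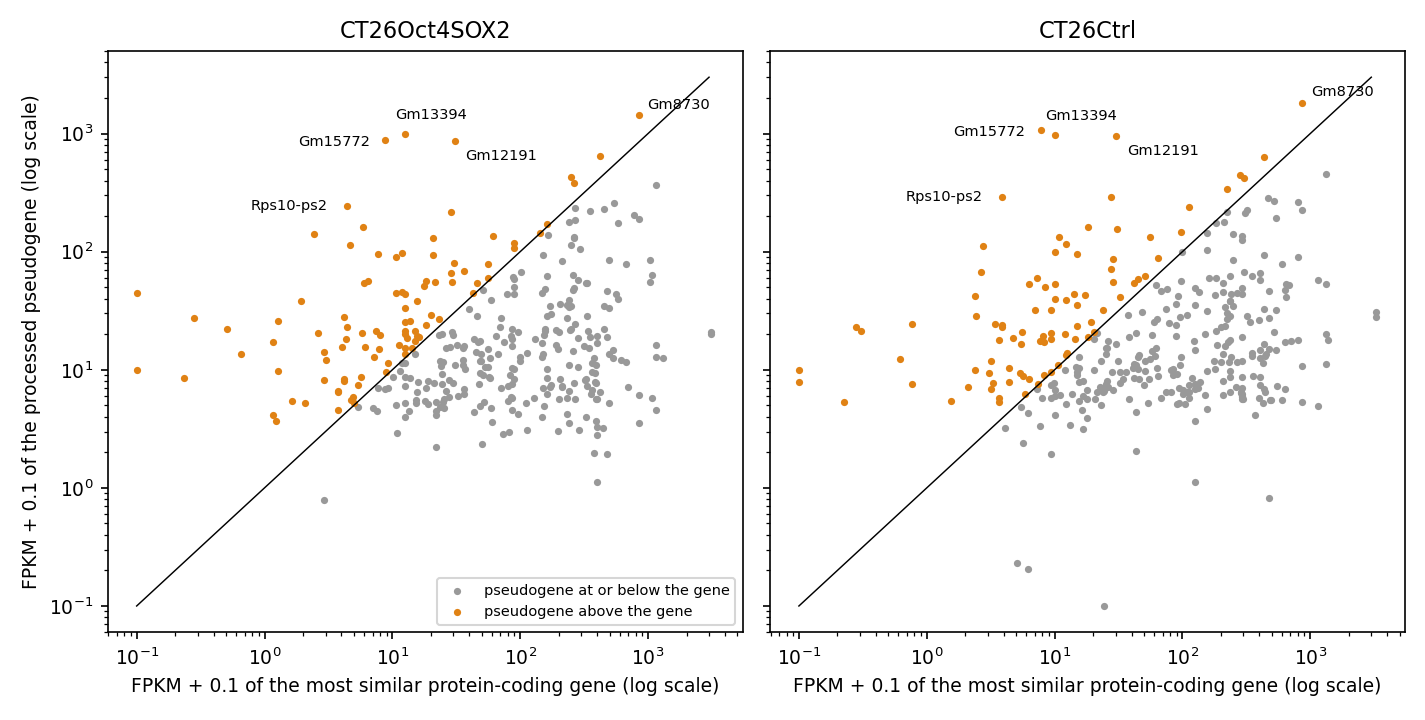
FPKM of each member against FPKM of its similar gene, as FPKM + 0.1 on log axes, with CT26Oct4SOX2 in the left panel and CT26Ctrl in the right panel. Points above the diagonal are members above their gene, with Gm13394 and Gm15772 far above it. Where the gene is above 0 FPKM they number 94 in CT26Oct4SOX2 and 88 in CT26Ctrl. AA414768 and Hist1h2al, whose genes are listed at 0, are drawn above the diagonal but not counted.

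Members at least 2-fold apart between the libraries lay in both directions, in numbers that depend on the pseudocount and the FPKM limit. On the scale of log2(FPKM + 1), CT26Oct4SOX2 over CT26Ctrl, 14 of 353 members were at least 2-fold higher and 14 at least 2-fold lower, 3.97% each. Among all 8235 genes with at least 5 FPKM in 1 library the shares were 1.76% higher and 1.47% lower, and among the 12401 genes with at least 1 FPKM they were 2.42% and 1.85%. Among 7627 protein-coding genes at the same 5 FPKM they were 1.38% higher and 1.19% lower. Among 512 processed pseudogenes from 1 to under 5 FPKM they were 5.08% higher and 4.49% lower. The median number of reads in the higher library was 294 for the members, 2302 for those protein-coding genes and 36 for those lower processed pseudogenes. The part of read depth in the shares was not tested. With a pseudocount of 0.1 the counts became 17 higher and 22 lower, with a pseudocount of 5 they became 11 and 5, and for the 237 members from 10 FPKM they were 12 and 7. The median member was at -0.13 on the log2 scale, with 130 above 0 and 223 below, and the median of all genes with at least 5 FPKM was -0.02.

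The members furthest above the control level included several with hardly a read in CT26Ctrl. The 5 FPKM limit takes the higher library, so such members were admitted by the same CT26Oct4SOX2 values that give their high ratios. Of the 10 highest, only Gm14794 and AA414768 reached 5 FPKM in both libraries. Gm43427, a distant copy of Fam32a, had 579 reads (54.9 FPKM) in CT26Oct4SOX2 and 0 in CT26Ctrl. Against a floor of 3 reads in CT26Ctrl this is 193-fold higher, and the lower limit of the exact counting interval is 157-fold. Fam32a itself had 21.3 FPKM in CT26Oct4SOX2 and 24.4 FPKM in CT26Ctrl. The copy was far higher in CT26Oct4SOX2 and the gene slightly lower.

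Gm18555 and Gm5251 followed. Gm18555, most similar to the dual-specificity phosphatase gene Dusp14, had 364 reads (19.6 FPKM) in CT26Oct4SOX2 and 2 reads (0.107 FPKM) in CT26Ctrl, a ratio of 182 (50.1 to 1511). Dusp14 was also higher, with 29.6 FPKM in CT26Oct4SOX2 and 6.06 FPKM in CT26Ctrl, 4.88-fold (4.37 to 5.47). Gm5251, most similar to Tma16, had 234 reads (15.6 FPKM) in CT26Oct4SOX2 and 2 reads (0.133 FPKM) in CT26Ctrl, a ratio of 117 (32.1 to 974). Tma16 stood at 0.797 times its control level (0.732 to 0.868). Of these 2 copies, then, 1 differed in the direction of its gene and 1 against it.

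Several members with more control reads were also far higher. Gm6992, a copy of Pkm, the pyruvate kinase of glycolysis, had 641 reads (12.5 FPKM) in CT26Oct4SOX2 and 37 reads (0.721 FPKM) in CT26Ctrl, 17.4-fold (12.5 to 24.9). Pkm was 1.10-fold higher, at 529 FPKM in CT26Oct4SOX2 and 479 FPKM in CT26Ctrl. Gm6576, the copy of the small subunit gene Rps2 shown above, had 446 reads (15.9 FPKM) in CT26Oct4SOX2 and 29 reads (1.03 FPKM) in CT26Ctrl, 15.4-fold (10.6 to 23.3). Rps2 was lower, at 86.7 FPKM in CT26Oct4SOX2 and 125 FPKM in CT26Ctrl. Gm14794, a copy of Atp5c1 of the mitochondrial ATP synthase, had 307 reads in CT26Oct4SOX2 and 31 in CT26Ctrl, 9.92-fold (6.85 to 14.9), beside an Atp5c1 ratio of 0.984. For all 3 copies the counting interval lay above that of the gene.

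Copies of chromatin and nuclear genes, which are 28 of the 353 members, were 3 of the 14 higher members. Among all genes with at least 5 FPKM in 1 library, 1.76% were higher. Gm13932, most similar to Hmgb1, had 262 reads (13.5 FPKM) in CT26Oct4SOX2 and 36 reads (1.85 FPKM) in CT26Ctrl, 7.29-fold (5.13 to 10.6). Gm38158, most similar to Hmga2, had 118 reads in CT26Oct4SOX2 and 21 in CT26Ctrl, 5.63-fold (3.52 to 9.43), while Hmga2 was at 0.822 times. Gm11914, most similar to Hmgn5, which encodes a nucleosome-binding protein, had 260 and 54 reads in that order, 4.82-fold (3.59 to 6.59). Hmgn5 was 2.41-fold higher (2.22 to 2.62). AA414768 had 1785 reads (44.6 FPKM) in CT26Oct4SOX2 and 396 reads (9.87 FPKM) in CT26Ctrl, 4.52-fold (4.05 to 5.05), and its similar gene E330021D16Rik, 83.9% identical, is listed at 0 in both.

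Copies of ribosomal protein genes, which are 118 of the 353 members, were 9 of the 14 lower members. Among all genes with at least 5 FPKM in 1 library, 1.47% were lower. Gm6311, the other Rps2 copy shown above, had 285 reads (10.2 FPKM) in CT26Oct4SOX2 and 1385 reads (49.4 FPKM) in CT26Ctrl, 4.85-fold lower (4.27 to 5.53). Gm7600, most similar to Rps3a1 of the small subunit, had 400 reads (16.0 FPKM) in CT26Oct4SOX2 and 1322 reads (52.8 FPKM) in CT26Ctrl, at 0.303 times (0.270 to 0.339). Rps3a1 was at 0.885 times. Gm17828 and Gm5854 are copies of Rpl7a of the large subunit and stood at 0.165 times (0.104 to 0.251) and 0.336 times (0.300 to 0.376). Rpl7a was higher in CT26Oct4SOX2, 1.36-fold (1.34 to 1.39), with 398 FPKM there and 292 FPKM in CT26Ctrl.

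Gm10123 is identical to Ppia, which encodes the prolyl isomerase cyclophilin A, over its whole alignment. It had 1304 reads (83.5 FPKM) in CT26Oct4SOX2 and 3712 reads (237 FPKM) in CT26Ctrl, at 0.352 times (0.330 to 0.375). Ppia had 23587 reads (211 FPKM) in CT26Oct4SOX2 and 12490 reads (112 FPKM) in CT26Ctrl, 1.89-fold higher (1.85 to 1.93). A copy and a gene that align without a difference thus stood in opposite directions. Summed with its 2 members, Ppia was 1.54-fold higher (1.505 to 1.566).

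Among the other lower members named, H3f3c, most similar to the histone gene H3f3a, stood at 0.322 times (0.203 to 0.499), and H3f3a at 1.24 times. Gm10157, most similar to Eif1, a factor in start codon selection, stood at 0.344 times (0.225 to 0.516), and Eif1 at 0.822 times. Rps19-ps6, Rpsa-ps2 and Rpl10-ps5 stood at 0.403, 0.338 and 0.343 times. The 3 genes they resemble stood between 0.775 and 0.975 times, so each copy differed more than its gene. Of the 10 lowest, Gm17828, H3f3c, Gm10157, Rpsa-ps2 and Rpl10-ps5 passed the 5 FPKM limit only through CT26Ctrl.

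**Figure D3:**
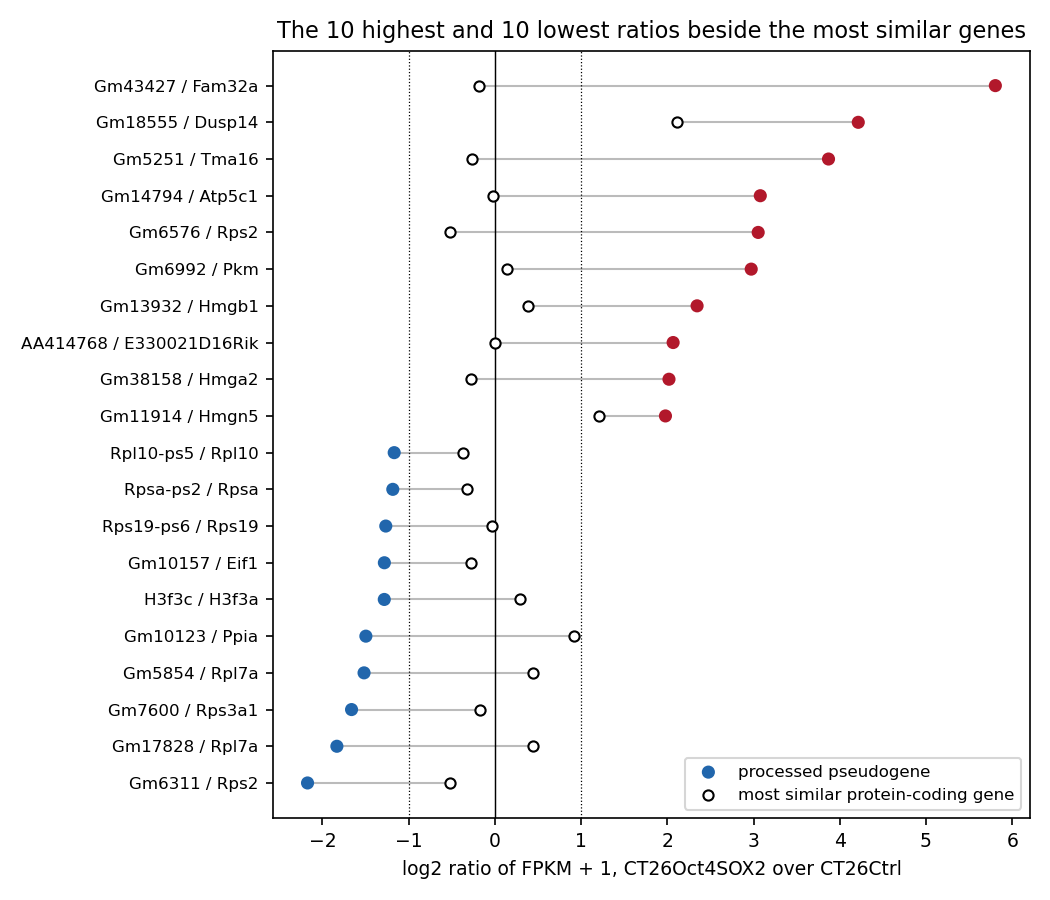
Log2 ratio of FPKM + 1, CT26Oct4SOX2 over CT26Ctrl, for the 10 highest and 10 lowest members with at least 50 reads in 1 library (filled points), each joined to its similar gene (open points), with dotted lines at 2-fold. The members run from -2.17 for Gm6311 to 5.80 for Gm43427, and the genes from -0.52 for Rps2 to 2.11 for Dusp14, with E330021D16Rik, listed at 0 in both libraries, drawn at 0.

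Members and similar genes were compared over the whole set in the same way. The 95% counting intervals of the ratios overlapped for 179 members, lay above the gene's for 62 and below for 108, and could not be set for 4. The log2 ratios were within 0.5 of each other for 258 members and at least 1 apart for 29, with a median absolute difference of 0.28. The signs were opposite for 121. The intervals hold counting error only and narrow as reads rise. Pairs of other genes were not compared, so how often any 2 genes would lie apart is not known. Across the members with a similar gene, Pearson's r was 0.28 and Spearman's rho 0.33 between the log2 ratios of member and gene (n = 351). This is a description, since all points come from the same 2 libraries and several members share a gene.

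Members were also grouped by how much sequence they share with transcripts of other genes. Of the 21 members that share no window of 100 bases, with a median identity of 93.3%, 7 were at least 2-fold higher and 1 lower. Their median absolute difference from the gene was 0.63 on the log2 scale. Of the 55 members whose windows were all shared, 0 were at least 2-fold higher and 1 was lower, Gm10123, and the median absolute difference was 0.21. Between them, 5 of 128 members with under 50% of windows shared were higher and 5 lower, and 1 of 145 with 50% to under 100% was higher and 7 lower. Over all genes with at least 5 FPKM in 1 library, 1.76% were higher and 1.47% lower. The 5 FPKM limit takes the higher library. In the class that shares no window, most of the 7 higher members passed it only through CT26Oct4SOX2. These were Gm43427, Gm18555, Gm5251, Gm13932 and Gm38158, while Gm14794 and AA414768 passed it in both libraries. The part of this limit in the class counts was not tested. The median identity to the similar gene was 95.4% for the 14 higher members and 98.7% for the 14 lower ones. Windows were searched in reference transcripts only, so matches elsewhere in the genome were not analysed here. The median number of reads in the higher library was 253 in the class that shares no window and 243 in the class under 50%. It was 386 in the class from 50% to under 100%, 511 in the class that shares all, and 294 over all members. The part of depth in the class counts was not tested.

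**Figure D4:**
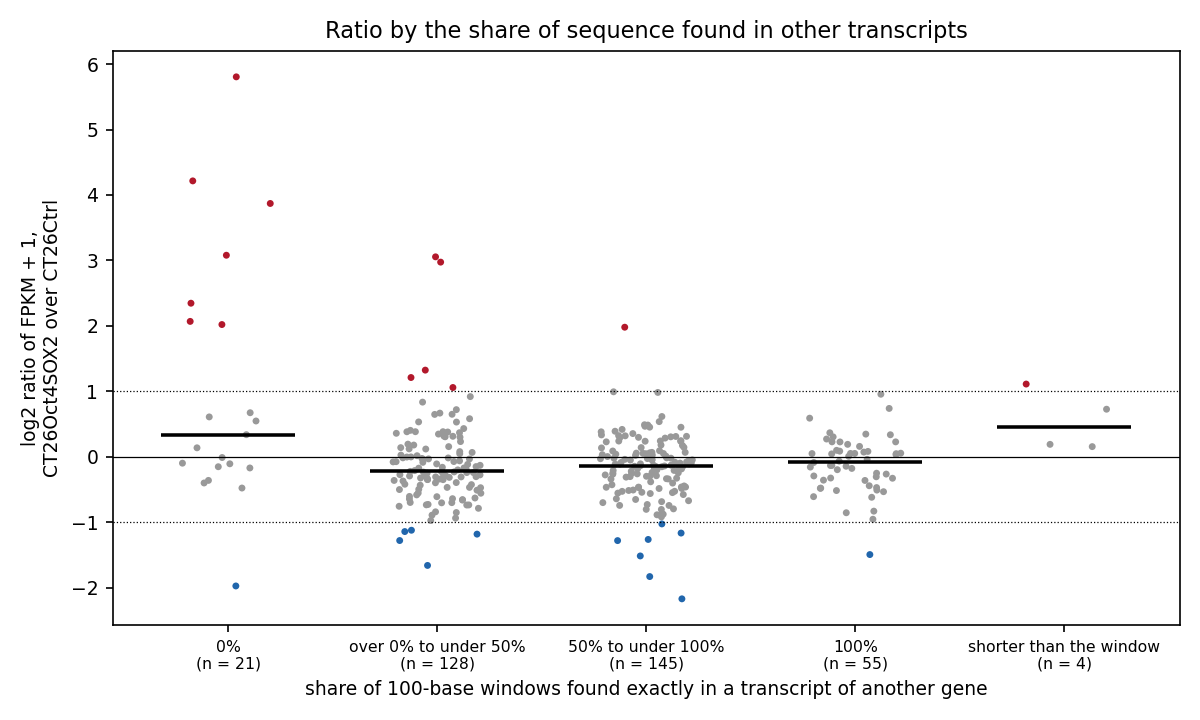
Log2 ratio of FPKM + 1, CT26Oct4SOX2 over CT26Ctrl, of each member, grouped by the share of its 100-base windows that occur in another gene's transcript, with a line at the median of each group and dotted lines at 2-fold. The group that shares none reaches from -1.98 to 5.80 around a median of 0.34, and the group that shares all reaches from -1.50 to 0.95 around -0.09.

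By family, copies of ribosomal protein genes lay mostly below 0 on the log2 scale. These 118 members resemble 64 genes and held 46.6% of member reads in CT26Oct4SOX2 and 50.1% in CT26Ctrl. Their median log2 ratio was -0.29, with 22 above 0 and 96 below, and 1 at least 2-fold higher and 9 lower. Their similar genes had a median of -0.15. The other 235 members had a median of -0.04, with 108 above 0 and 127 below, and 13 at least 2-fold higher and 5 lower. For these counts and those of the families below, the shares over all genes with at least 5 FPKM were 1.76% higher and 1.47% lower. A difference between families was not tested. The large subunit gave 70 members (median -0.28, 0 higher and 4 lower) and the small subunit 48 (median -0.31, 1 higher and 5 lower). The 13 copies of translation factor genes had a median of -0.34 with 1 lower, and include Tpt1-ps3, identical to Tpt1, at 205 FPKM in CT26Oct4SOX2 and 264 FPKM in CT26Ctrl. It stood at 0.777 times (0.742 to 0.813), and Tpt1 at 0.955 times.

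Most other families lay nearer to 0 or above it. The 12 glycolysis members had a median of 0.08 with 1 higher, Gm6992, and held 17.9% of member reads in CT26Oct4SOX2 and 15.4% in CT26Ctrl. The 28 chromatin and nuclear members had a median of 0.12 with 3 higher and 1 lower. The most read of these, Gm4204, a copy of the histone chaperone gene Nap1l1, had 118 FPKM in CT26Oct4SOX2 and 99.5 FPKM in CT26Ctrl. It stood at 1.19 times (1.14 to 1.24), and Nap1l1 at 0.895 times. Gm7964, a copy of Hnrnpk, which encodes an RNA-binding protein, stood at 1.18 times (1.12 to 1.25), and Hnrnpk at 1.04 times.

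The 14 mitochondrial energy members had a median of 0.19 with 2 higher. Gm15920, a copy of Ndufa12 of respiratory complex I, had 163 FPKM (2090 reads) in CT26Oct4SOX2 and 116 FPKM (1489 reads) in CT26Ctrl, 1.41-fold higher (1.315 to 1.504). Ndufa12 had 5.82 FPKM (291 reads) in CT26Oct4SOX2 and 12.2 FPKM (612 reads) in CT26Ctrl, at 0.476 times (0.413 to 0.549). The gene and its more abundant copy were thus opposite in direction. Summed, they were at 1.14 times (1.07 to 1.20). Gm10039, a copy of Atp5g1 of the ATP synthase, stood at 0.712 times (0.662 to 0.766), beside 0.711 times for Atp5g1.

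Among 5 cytoskeleton members the median was 0.48 with 1 higher. Gm3756, a copy of the alpha-tubulin gene Tuba1b, had 1239 reads (28.7 FPKM) in CT26Oct4SOX2 and 512 reads (11.8 FPKM) in CT26Ctrl, 2.42-fold (2.19 to 2.69), and Tuba1b was 1.90-fold higher. Gm3788, a copy of Tmsb10, which encodes an actin-binding thymosin, was 1.91-fold higher (1.60 to 2.29), and Tmsb10 1.83-fold. Both copies differed in the direction of their genes. The 12 proteasome and ubiquitin members had a median of 0.03 with 0 beyond 2-fold, and the smallest median absolute difference from the genes of the families, 0.10. Gm3375, a copy of the catalytic subunit gene Psmb5, stood at 0.886 times, and Psmb5 at 0.876 times. Gm13835, identical to Psma3, stood at 1.004 times, and Psma3 at 1.018 times. The 5 chaperone members had a median of -0.20 with 1 lower, Gm10123, and Hspd1-ps3, a copy of the mitochondrial chaperonin gene Hspd1, stood at 0.784 times beside 0.672 times for Hspd1. None of the members had a ferritin gene or one of the interferon-stimulated genes listed as its similar gene.

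**Figure D5:**
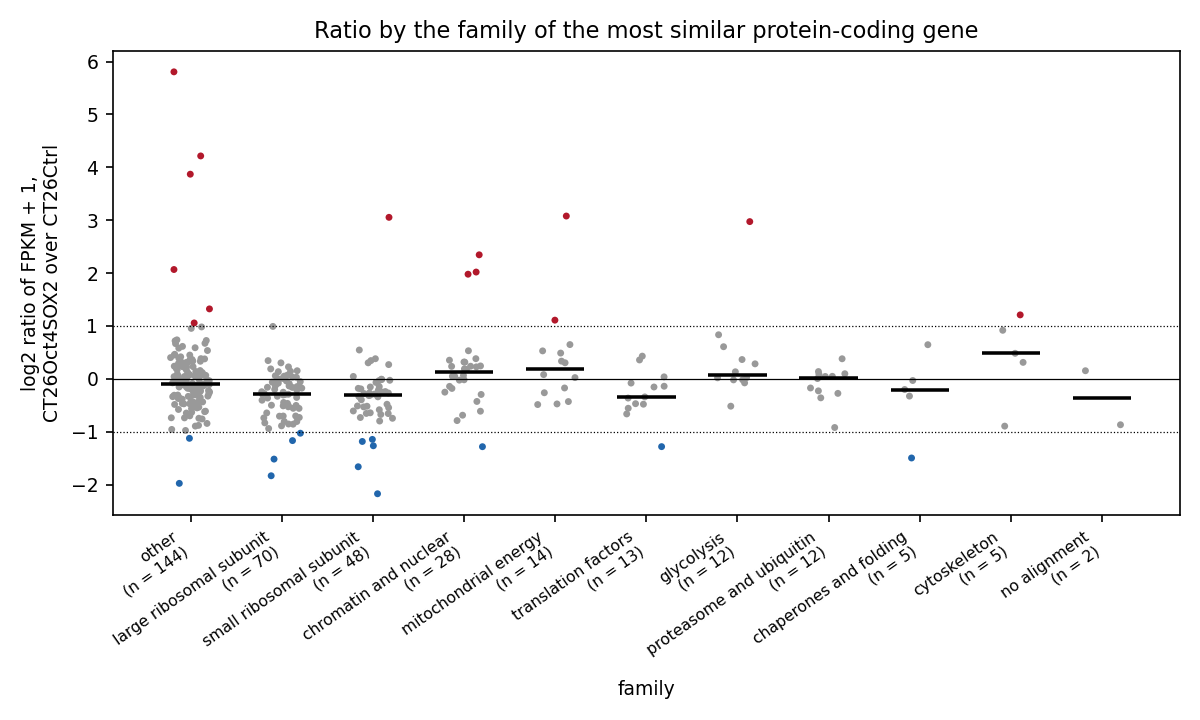
Log2 ratio of FPKM + 1, CT26Oct4SOX2 over CT26Ctrl, of each member by the family of its similar gene, with a line at the median of each family and dotted lines at 2-fold. The large and small ribosomal subunit families have medians of -0.28 and -0.31, and the cytoskeleton family the highest, 0.48.

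Copies of 1 gene did not always differ alike. The 7 members most similar to Rps2 ranged from -2.17 for Gm6311 to 3.05 for Gm6576 on the log2 scale. Their reads sum to 2298 in CT26Oct4SOX2 and 3266 in CT26Ctrl, and the sum of Rps2 and its members was at 0.697 times (0.676 to 0.718), beside 0.693 times for Rps2 alone. This sum leaves out Rps2-ps10, which is listed as a transcribed processed pseudogene, a separate class, and was not aligned here. Rps2-ps10 had 27417 reads in CT26Oct4SOX2 and 36193 in CT26Ctrl, more than Rps2 itself (5058 and 7313 in that order). Of the 7 members most similar to Hmgb1, Gm13932 stood apart at 2.35 and the others lay between -0.02 and 0.53. The 5 members most similar to Phgdh, which encodes the first enzyme of serine synthesis, were closer together. They stood between 0.475 and 0.742 times, and Phgdh at 0.596 times (0.586 to 0.607), so all 5 copies and the gene were lower in CT26Oct4SOX2. The 6 members most similar to Rpl7a had a median of -0.77 and ranged from -1.83 to 0.03, beside 0.45 for Rpl7a.

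The 2 members with no same-strand alignment to a protein-coding transcript were Gm15433 and Gm2666, both 891 bases long and on chromosome 1. Of their 100-base windows 61.1% and 36.1%, in that order, occur in transcripts of other genes. Gm15433 had 496 reads (17.5 FPKM) in CT26Oct4SOX2 and 930 reads (32.7 FPKM) in CT26Ctrl, at 0.534 times (0.478 to 0.596). Gm2666 had 282 reads (9.93 FPKM) and 251 reads (8.83 FPKM) in that order, at 1.13 times (0.946 to 1.34), an interval that includes 1.

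Position in the genome was also recorded. Between annotated genes lay 236 members, of which 12 were at least 2-fold higher and 8 lower. Inside another gene but off its exons lay 109, of which 2 were higher and 6 lower. Only 8 overlapped an exon of another gene, 3 on the same strand and 5 on the other strand only, and 0 of these were 2-fold apart. Over all members 3.97% were higher and 3.97% lower, and over all genes with at least 5 FPKM 1.76% and 1.47%. The counts per place are small, and a difference between places was not tested. The median log2 ratio was -0.14 for members between genes and -0.13 for those inside genes. Whether transcription of the surrounding gene adds reads to a member was not tested.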

How the data were processed

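The authors deposited 1 table of FPKM values with 54532 genes, their length, position and biotype, and a column per library. CASAVA, HISAT2 and featureCounts 1.5.0-p3 on GRCm38 are named per the submitters' processing notes. Per the labels' protocols, the library kit was NEBNext Ultra RNA. The sources used here give neither the annotation release nor the FPKM formula.

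Each library has 1 smallest step of FPKM times length. Dividing by it gave read numbers, whole within 0.001 of a read for 100% of values. One read at 1 kb was worth 0.0314 FPKM in CT26Oct4SOX2 and 0.0313 FPKM in CT26Ctrl. The implied totals were 1.01 and 0.989 times the recovered totals in that order. Ratios are plain FPKM ratios with exact conditional binomial 95% intervals (Clopper-Pearson), and the 2-fold count and medians use log2(FPKM + 1), which understates low genes. A fold against 0 reads uses a floor of 3 reads. With 1 library per group no test was made.

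Member transcripts were aligned to GENCODE M21 protein-coding transcripts (blastn 2.17.0, e-value limit 1e-10, word size 11). Only same-strand alignments to genes in the deposited table were kept. The gene with the highest bit score in a single alignment is the similar gene, tied in 9 members. All 353 members were in GENCODE M21, 348 with the same coordinates. Windows of 100 bases were searched on both strands in transcripts of other genes. No genome was used.

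The members, families and naming rule were chosen with earlier results of these data known. Families follow the symbol of the similar gene, with Eno1b taken under glycolysis. Members named are the 12 with the most reads, the 10 highest and 10 lowest ratios with at least 50 reads in 1 library, 3 on each side of the threshold, and 2 per family by reads, each with its similar gene. Rps2, Hmgb1, Phgdh and Rpl7a were described as the genes with 5 or more members. Alternatives were pseudocounts of 0.1 and 5, members from 1 or 10 FPKM, at least 50 reads, plain read totals, no exon overlap, an interval wholly beyond 2-fold, and windows of 50 and 150 bases. The steps were tested on simulated data. Python 3.11.15, numpy 2.4.6, pandas 2.3.3, scipy 1.17.1 and matplotlib 3.10.9 were used.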

Additional observations from a re-analysis of the deposited data

How the results depend on the processing

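No paired analysis was possible because each group holds 1 library, and for the same reason no library could be left out. The count of members at least 2-fold higher was 14, and became 40 of 865 with members from 1 FPKM. The count at least 2-fold lower was 14, and became 22 with a pseudocount of 0.1, 5 with a pseudocount of 5, 37 of 865 with members from 1 FPKM and 7 of 237 with members from 10 FPKM. A larger pseudocount shrinks the ratios of low genes by its construction, and the other causes were not tested. The share of reads was 1.21% in CT26Oct4SOX2 and 1.32% in CT26Ctrl over all processed pseudogenes, and 1.11% and 1.22% in that order without exon overlap. The median share of windows found elsewhere was 78.2% at 50 bases and 39.9% at 150 bases. Under the other alternatives the higher count lay between 11 and 17, the lower count between 10 and 14, and the median log2 ratio between -0.14 and -0.10. The median difference from the similar gene lay between -0.10 and -0.08. No median changed sign under the alternatives run. Members with few reads limit the precision, and intervals cover counting error only.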

Other observations

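Other classes of pseudogene also held reads. Of 276 transcribed processed pseudogenes, a separate class in the deposited table, 23 had at least 5 FPKM, with 50045 reads in CT26Oct4SOX2 and 63285 in CT26Ctrl. None of the 23 was at least 2-fold apart, and their median log2 ratio was -0.15. At shares of 1.76% higher and 1.47% lower over all genes with at least 5 FPKM, a count of 0 in so few says little. Of 2635 unprocessed pseudogenes, a class that arises in many cases by duplication of a gene, 20 had at least 5 FPKM. Among these Gm14411 had 211 reads in CT26Oct4SOX2 and 9 in CT26Ctrl, and Gm28438 had 135 and 404 reads in that order. The origin of the 20 was not analysed here. Of 237 transcribed unprocessed pseudogenes 11 had at least 5 FPKM, and Gm8995 had 1642 reads in CT26Oct4SOX2 and 4931 in CT26Ctrl. Of 79 polymorphic pseudogenes, intact in some mouse strains and disrupted in others, 3 had at least 5 FPKM. Mx2 and Oas1b, both genes of the antiviral response, had 593 and 657 reads in CT26Oct4SOX2 and 1378 and 1307 reads in CT26Ctrl. The genes named here were chosen after their values were seen.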
